A study of Bos taurus with 6 samples.

Results

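Reads were counted for 5 genes of inflammatory signalling in 2 cell types of bovine muscle, satellite cells (SCs) and fibro-adipogenic progenitors (FAPs). The genes are the cytokines interleukin-6 (IL6, ENSBTAG00000014921) and interleukin-1 beta (IL1B, ENSBTAG00000001321), the chemokines CXCL8 (ENSBTAG00000019716) and CCL2 (ENSBTAG00000025250), and the prostaglandin-forming enzyme PTGS2 (ENSBTAG00000014127). They were taken by identifier from the 27607 genes of the count table, which holds no names, and the names are those paired with the identifiers when the set was drawn up. FAPs are interstitial cells of muscle that can form fat and fibrous tissue, and SCs are the stem cells of the muscle fibre. Both were obtained from the semitendinosus muscle of Belgian Blue cattle. After a first culture of 72 h on collagen, cells negative for the endothelial and blood cell markers CD31 and CD45 were sorted by flow cytometry. Those sorted were positive for CD29, with CD56 present on SCs and absent on FAPs. Each cell type gave 3 libraries, named A, B and C. Their cells were plated after the sort at 2000 per cm2. They were then kept for 72 h in growth medium with 20% serum and 5 ng/ml basic fibroblast growth factor. The labels name no other agent, inflammatory or differentiating, for either group. The cattle used for cell isolation were of both sexes and of a range of ages. Which animals gave which library, and whether the letters stand for animals or for cultures, is not given in the sources used here, so that the p-values below measure the spread between these libraries, which may be technical.

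Interleukin-6 is a secreted cytokine that acts through a receptor complex on many cell types and, in regenerating muscle, on myogenic cells. Interleukin-1 beta is a strong inducer of inflammation that is made mainly by myeloid cells. CXCL8 and CCL2 are small secreted proteins that attract neutrophils and monocytes, respectively. PTGS2, also known as cyclooxygenase-2, is the inducible enzyme that converts arachidonic acid to the precursor of the prostaglandins. Transcription of all of these genes can be induced through the factor NF-kB in stimulated fibroblasts and immune cells.

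IL6, PTGS2 and CXCL8 were counted in all 6 libraries and were higher in every FAP library than in any SC library. The SC libraries nevertheless held these 3 transcripts at between 5 and 65 counts a library, above the smallest level taken as shown, 3 counts. Which cells of the sorted SC cultures carried them was not tested. CCL2 was at or under 3 counts in 2 of 3 libraries of either cell type, and IL1B in all 6. Levels are given as CPM, read counts scaled to a common library size, here with sizes adjusted with TMM factors, which correct for a few very abundant genes taking up a large part of a library. As the CPM are not divided by the length of the transcript, levels were compared between cell types and not between genes. In RNA from a whole culture, fewer cells of a type that carries a transcript and less RNA per cell cannot be told apart.

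**Figure D1:**
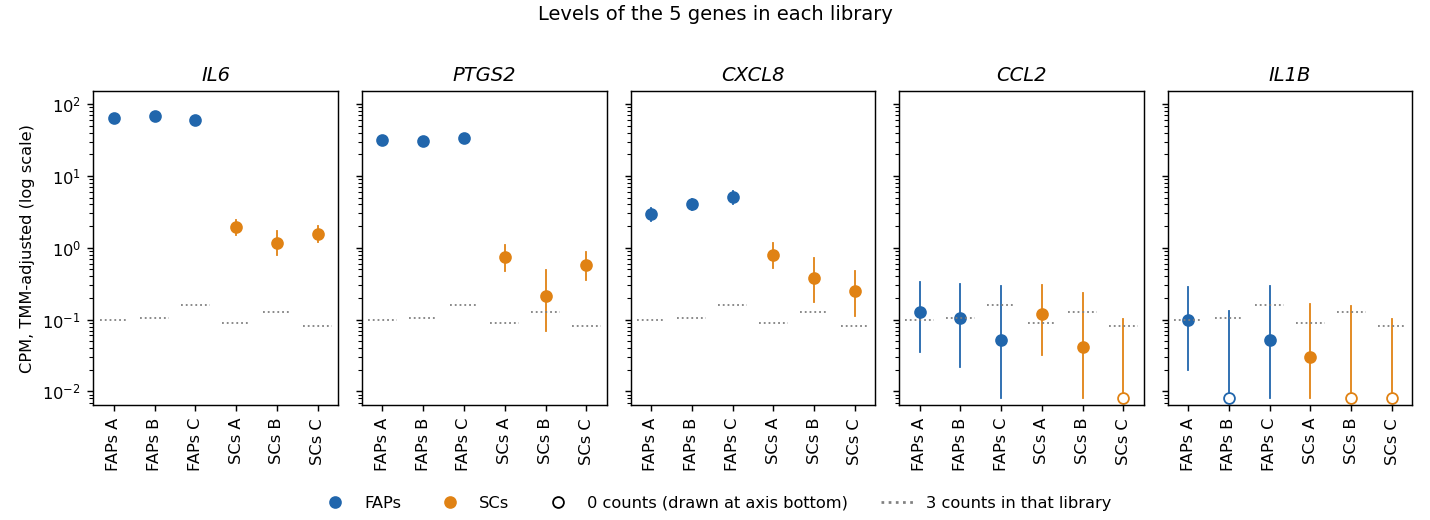
Level of each gene in each library, in TMM-adjusted CPM on a log axis, with exact Poisson 95% intervals as vertical lines (cut off at the bottom of the axis) and 3 counts in that library as dotted lines. All libraries lie above the dotted line for IL6, PTGS2 and CXCL8, with FAPs above SCs, while for CCL2 and IL1B no library has more than 4 counts.

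The FAP libraries held between 22737901 and 37791193 counts and the SC libraries between 19666738 and 30115337. In TMM-adjusted CPM, 3 counts corresponded to between 0.0825 CPM in SCs C and 0.157 CPM in FAPs C. The 10 most counted genes took between 22.5% and 24.0% of the counts in FAPs and between 7.73% and 8.02% in SCs, and the TMM factors were between 0.817 and 0.839 in FAPs and between 1.195 and 1.21 in SCs. The table pairs no identifier with a name, so that the markers of FAPs, of myogenic cells and of leucocytes or endothelial cells left over from the sort were not analysed here. Their part in the results was not tested.

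IL6, the cytokine with receptors on myogenic cells, had a level in SCs that was 2.44% of that in FAPs. It had 2002 counts in FAPs A, 1917 in FAPs B and 1133 in FAPs C, against 65 counts in SCs A, 28 in SCs B and 57 in SCs C. In TMM-adjusted CPM this was 64.8, 67.5 and 59.4 in FAPs A, B and C and 1.93, 1.18 and 1.57 in SCs A, B and C. All FAP libraries therefore had a similar level of this transcript, and the lowest of them was 30.8 times as high as the highest SC library. The mean level was 63.9 ± 4.15 CPM (SD, n = 3) in FAPs and 1.56 ± 0.376 CPM (SD, n = 3) in SCs. The fitted log2-FC, the level in FAPs over that in SCs on the log2 scale, was 5.33 (standard error 0.128, 95% interval 5.05 to 5.60; adjusted p = 4.05e-12 in the quasi-likelihood test of edgeR, adjusted over all tested genes by the method of Benjamini and Hochberg). This amounts to a 40.1-fold higher level in FAPs. The SC level, though low, was not at the limit of detection, since the lower bound of the exact Poisson 95% interval of SCs B, the lowest library, was 0.782 CPM and 3 counts were 0.126 CPM in that library.

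PTGS2 differed between the cell types in the same direction. It had 972, 876 and 653 counts in FAPs A, B and C, and 25, 5 and 21 counts in SCs A, B and C. Its level was 31.5, 30.8 and 34.2 CPM in FAPs A, B and C and 0.742, 0.210 and 0.577 CPM in SCs A, B and C. FAPs thus carried the mRNA of this enzyme at an even level across libraries, and the SC libraries lay at 1.58% of that level on average, with SCs B the lowest. The mean was 32.2 ± 1.79 CPM (SD, n = 3) in FAPs and 0.510 ± 0.272 CPM (SD, n = 3) in SCs. The log2-FC of PTGS2 was 5.88 (standard error 0.189, 95% interval 5.47 to 6.30; adjusted p = 4.87e-11, edgeR quasi-likelihood), a 59.0-fold difference. Between single libraries, the ratio of a FAP to an SC library ran from 41.6 to 163. The exact Poisson 95% interval of SCs B, with its 5 counts, ran from 0.0683 to 0.491 CPM. The levels of SCs A and SCs C lay above it. As 3 counts were 0.126 CPM in SCs B, this interval reached below that level, unlike the interval of IL6 in the same library.

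CXCL8, the neutrophil-attracting chemokine, was also higher in FAPs, with far fewer reads behind it. FAPs A, B and C had 90, 114 and 96 counts, and SCs A, B and C had 27, 9 and 9. The level was 2.91, 4.01 and 5.03 CPM in FAPs A, B and C, and 0.801, 0.378 and 0.247 CPM in SCs A, B and C. The groups did not overlap, but the lowest FAP library, A, was only 3.64 times as high as the highest SC library, also A, and the highest FAP library was 20.3 times as high as the lowest SC library. The mean level was 3.99 ± 1.06 CPM (SD, n = 3) in FAPs and 0.476 ± 0.289 CPM (SD, n = 3) in SCs, so that SCs stood at 11.9% of FAPs. The log2-FC of CXCL8 was 3.02 (standard error 0.331, 95% interval 2.29 to 3.74; adjusted p = 4.69e-06, edgeR quasi-likelihood), an 8.10-fold difference. The size of this difference depended on which libraries were used. It was 12.8-fold without SCs replicate A (adjusted p = 3.40e-08 from the same test) and 6.22-fold without SCs replicate C.

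All 3 of these genes were called, that is, their adjusted p (FDR) was under 0.05 and they differed by more than 1 on the log2 scale. In the whole table, 28.1% of the 14039 tested genes were called, and 14.5% of the tested genes were called as higher in FAPs. A complete separation of the libraries with FAPs on the higher side was found in 36.5% of tested genes, so that the lack of overlap alone does not set IL6, PTGS2 and CXCL8 apart from many other genes. With 3 libraries against 3, an exact two-sided permutation test of the CPM gave p = 0.1 for each of IL6, PTGS2 and CXCL8, the smallest p possible in this design. The size of the changes was at the upper end of the table. PTGS2 had rank 100 and IL6 rank 145 among the 14039 log2-FC ordered from the highest in FAPs, so that 0.705% and 1.03% of tested genes had a higher value. CXCL8 had rank 559, with 3.98% of genes above it.

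**Figure D2:**
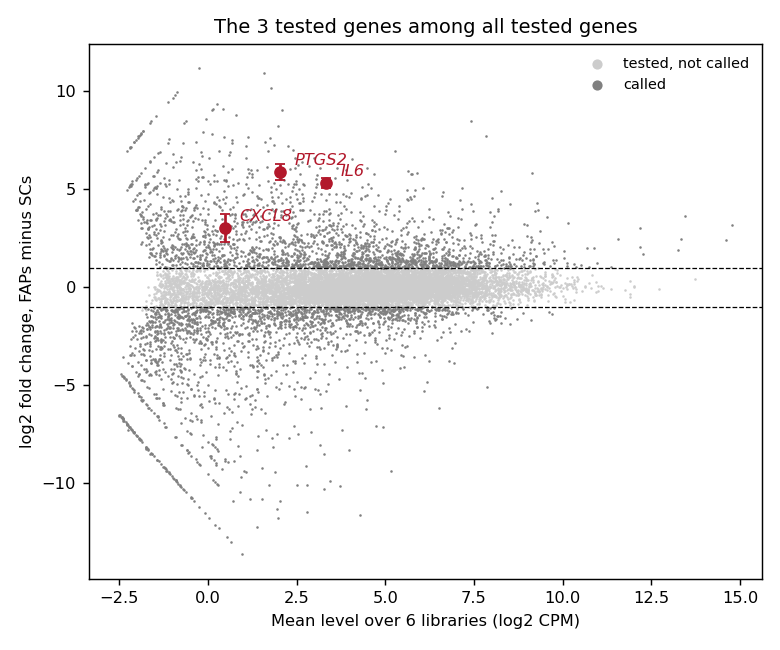
Fitted log2-FC (FAPs minus SCs) against the mean log2 CPM over the 6 libraries for all 14039 tested genes, with called genes in dark grey and the 3 tested genes of inflammatory signalling in red with 95% intervals. Dashed lines mark the cutoff of 1 on the log2 scale, and PTGS2, IL6 and CXCL8 lie above the upper line at 5.88, 5.33 and 3.02.

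CCL2, the monocyte-attracting chemokine, was close to the limit of detection in both cell types. It had 4 counts in FAPs A, 3 in FAPs B and 1 in FAPs C, and 4 counts in SCs A, 1 in SCs B and 0 in SCs C. Only FAPs A and SCs A were thus above 3 counts, each by a single read, and the groups overlapped. The 8 counts over all FAP libraries gave a level of 0.102 CPM with an exact Poisson 95% interval from 0.0441 to 0.201 CPM. The 5 counts over all SC libraries gave 0.0533 CPM with an interval from 0.0173 to 0.124 CPM. The 0 counts of SCs C allow a level of up to 0.101 CPM by the same kind of interval.

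IL1B was the only one of the 5 genes at or under 3 counts in every library. It had 3 counts in FAPs A, 0 in FAPs B and 1 in FAPs C, and 1 count in SCs A with 0 in SCs B and SCs C. Its 4 counts over all FAP libraries gave 0.0510 CPM (exact Poisson 95% interval 0.0139 to 0.131 CPM), and its 1 count over all SC libraries gave 0.0107 CPM (0.000270 to 0.0594 CPM). These intervals, as those of CCL2, cover counting error only and leave out the spread between libraries. They also treat reads as independent, though reads of amplified libraries are not independent molecules.

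Neither CCL2 nor IL1B passed the filter on low counts, and no fold change is given for either, since both groups were on average under 3 counts. When all 19162 genes with a count were fitted instead, neither gene was called, with an adjusted p of 0.440 for CCL2 and 0.293 for IL1B (edgeR quasi-likelihood with Benjamini-Hochberg adjustment). The unadjusted p was 0.352 for CCL2 and 0.208 for IL1B in that edgeR fit, 0.532 and 0.363 with DESeq2 and 0.0951 and 0.149 with limma-voom, so that none was under 0.05. A difference between the cell types in these genes was not detectable at this depth. Of the 27607 identifiers, 41.4% (11426) had at most 3 counts in every library, like IL1B, and 42.8% had at most 4, like CCL2, but 8445 of them had 0 counts in all 6 libraries, unlike IL1B and CCL2. The sources used here do not say how reads that map to several genes were treated. In the RefSeq annotation of the later assembly ARS-UCD2.0, the protein-coding genes next to CCL2 on one side are the related chemokines CCL11 and CCL8, and CXCL5 lies close to CXCL8, with LOC534181 between them. Whether reads were lost to or shared with such relatives was not tested.

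The 3 genes that were called did not vary in the same way between libraries of one cell type. In FAPs the coefficient of variation was 6.49% for IL6, where counting error alone gives 2.49%, and 5.57% for PTGS2, where it gives 3.54%. CXCL8 varied more in FAPs, at 26.6% against 10.2% from counting error. Its exact Poisson 95% intervals in FAPs A (2.34 to 3.58 CPM) and FAPs C (4.07 to 6.14 CPM) did not overlap. For IL6, too, the intervals of FAPs B (64.5 to 70.6 CPM) and FAPs C (56.0 to 62.9 CPM) did not overlap. In SCs the coefficients were larger throughout, at 24.1% for IL6, 53.4% for PTGS2 and 60.8% for CXCL8, where counting error gives 14.3%, 24.5% and 26.2%. SCs A had the highest level of all 3 genes among SC libraries. The lowest was SCs B for IL6 and PTGS2, and SCs C for CXCL8.

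Ratios of 2 genes within a library do not depend on how the libraries are scaled, and were used to ask whether the 3 genes differed between cell types to the same extent. The ratios are of read counts and hold the lengths of the transcripts, so that only their change between libraries can be read. IL6 had between 11.8 and 22.2 times as many counts as CXCL8 in FAPs, and between 2.41 and 6.33 times as many in SCs. On the log2 scale this ratio was 4.04 ± 0.458 (SD, n = 3) in FAPs and 1.86 ± 0.723 (SD, n = 3) in SCs, a difference of 2.18. PTGS2 had between 6.80 and 10.8 times the counts of CXCL8 in FAPs, but between 0.556 and 2.33 times in SCs, a difference of 2.96 on the log2 scale. FAPs and SCs thus differed less in CXCL8 than in the other 2 genes. Each of these ratios to CXCL8 was higher in every FAP library than in any SC library. The ratio of IL6 to PTGS2 moved least, from between 1.74 and 2.19 in FAPs to between 2.60 and 5.60 in SCs, with SCs B the highest, and the difference of the means was -0.78 on the log2 scale. For each of the 3 ratios the cell types did not overlap, with p = 0.1 from an exact two-sided permutation test, the smallest possible, and 0.1 after Benjamini-Hochberg adjustment over the 3. How many other pairs of genes separate the cell types in this way was not computed. The ratios in SCs rest on between 5 and 25 counts of PTGS2 and between 9 and 27 of CXCL8. Their counting error was not computed.

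**Figure D3:**
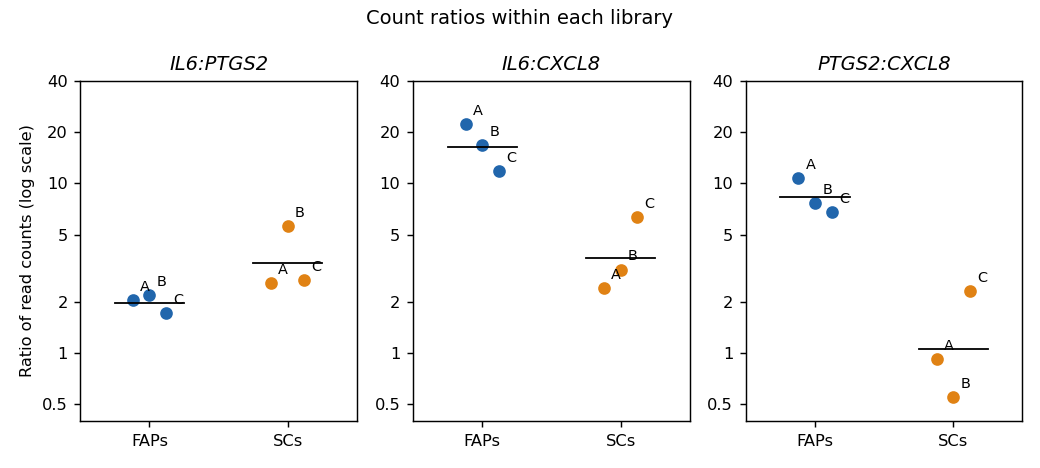
Ratios of read counts of 2 genes within each library, on a log axis, with a point for each library (A, B and C) and the geometric mean of each cell type as a line. IL6:CXCL8 and PTGS2:CXCL8 are higher in every FAP library than in any SC library, and IL6:PTGS2 is lower.

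The genes with the most similar pattern to IL6, PTGS2 and CXCL8 were sought among the tested genes. The measure was the root mean square difference of log2 CPM over the 6 libraries, after subtraction of each gene's mean. A constant of 2 counts, scaled to library size, was added before the logarithm, so that distances of genes with few counts depend on it. All of these patterns are dominated by the difference between the cell types, and the distances are given as a description. The gene closest to IL6, at 0.0727 on the log2 scale, was ENSBTAG00000011854, which the table does not pair with a name. It had 934, 840 and 521 counts in FAPs A, B and C and 29, 13 and 28 in SCs A, B and C. The gene closest to PTGS2 was ENSBTAG00000018137, at 0.257, with 242, 167 and 138 counts in FAPs and 4, 0 and 1 in SCs. Its fitted log2-FC was 6.92 against 5.88 for PTGS2, so that this small distance depends on the added constant. For CXCL8 the smallest distance was 0.217. PTGS2 and IL6 were 0.425 apart, which placed IL6 at rank 21 of 14038 genes in likeness to PTGS2, and PTGS2 at rank 99 in likeness to IL6. CXCL8 was further from both, at 1.24 from IL6 and 1.57 from PTGS2.

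The direction and the call of all 3 genes held under each of the 17 alternatives run for them. The log2-FC of IL6 ran from 4.79 to 5.50, that of PTGS2 from 5.35 to 6.24 and that of CXCL8 from 2.49 to 3.67. The lowest value of each was found when library totals replaced the TMM factors, a scaling under which the median log2-FC over the tested genes was -0.57 in place of -0.03. On that scaling IL6 was 27.7-fold, PTGS2 40.8-fold and CXCL8 5.60-fold higher in FAPs.

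**Figure D4:**
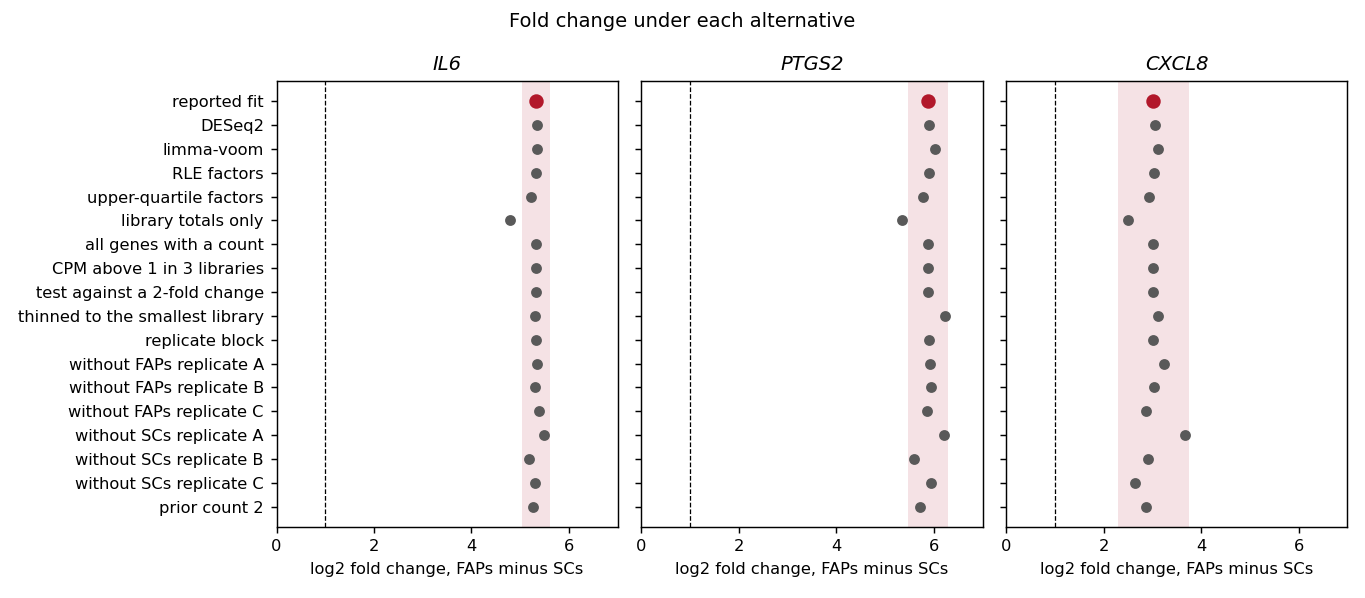
Log2-FC of IL6, PTGS2 and CXCL8 in the reported fit (red, with its 95% interval as a band) and under each of the 17 alternatives (grey), against the cutoff of 1 (dashed). All points lie right of the cutoff, from 2.49 for CXCL8 with library totals to 6.24 for PTGS2 with thinned counts.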

How the data were processed

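The authors prepared stranded poly(A) libraries, aligned single-end reads to bosTau9 with STAR 2.7 and used featureCounts to count reads on Ensembl genes. The deposited table holds raw counts, with no normalization, and 0 other columns of per-sample values were present. How strand and multi-mapping reads were treated is not given in the sources used here.

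Low counts were removed by filterByExpr (minimum count 10), which left 14039 of 27607 genes. With TMM factors, these were tested for cell type alone by the quasi-likelihood test of edgeR 4.0.16 (R 4.3.3). The cutoffs of the study's methods were used, an FDR below 0.05 and more than 1 on the log2 scale. TMM factors were applied to library totals for CPM. Standard errors were taken as the log2-FC divided by the square root of the F statistic. Limma 3.58.1 with voom (limma being the package of the study) and DESeq2 1.42.0 were run as alternatives. Libraries of one cell type differed by more than counting error (chi-square per degree of freedom 3.97 to 27.0), so that none was counted as a duplicate.

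The members and lists were chosen with earlier results of these data known. Lists of receptors, prostaglandin enzymes, other cytokines and chemokines, NF-kB factors and cell type markers had been set down by symbol, but 0 identifiers matched the RefSeq table (37063 genes, ARS-UCD2.0), so that these lists and levels per length were not analysed here. Of the genes closest in pattern, set down as 2 per member, the closest to IL6 and to PTGS2 are named, as at most 2 identifiers without a name were to be printed.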

Additional observations from a re-analysis of the deposited data

How the results depend on the processing

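IL6, PTGS2 and CXCL8 kept their direction and their call under DESeq2, limma-voom, RLE or upper-quartile factors, library totals, both other filters, a test against a 2-fold change, thinning to the smallest library, the replicate block, a prior count of 2 and each library left out in turn. Over these alternatives the highest adjusted p was 3.78e-09 for IL6, 3.49e-08 for PTGS2 and 0.000105 for CXCL8. With each library left out, the log2-FC ran from 5.19 to 5.50 for IL6, from 5.60 to 6.20 for PTGS2 and from 2.64 to 3.67 for CXCL8, the last without SCs replicate A. Among all tested genes, library totals gave 1286 calls on the FAP side and 3797 on the SC side, against 2035 and 1908 with TMM factors, so that 25.3% of the calls were higher in FAPs against 51.6%. That scaling also moved the mean of IL6 in FAPs to 53.1 CPM and of PTGS2 to 26.7 CPM, by more than 1 SD, while the other 28 of 30 levels stayed within it. The other settings changed these numbers by less than 1.5 times. The replicate block gave 3942 called genes, 3915 of them also called without it, and the log2-FC was 5.32 for IL6, 5.89 for PTGS2 and 3.01 for CXCL8. The correlations of same-lettered libraries across genes were 0.199 (A), 0.0134 (B) and 0.167 (C). The rule set down for pairing asked that every letter pass a cutoff, which A and C did and B did not. The letters were therefore not taken to pair the libraries, though the values do not show that they were unpaired. No fold change of CCL2 or IL1B is given under any alternative, and the depth leaves levels under 0.157 CPM in the FAP library of least depth undetermined. The alternatives for gene lists were not run, as no identifier matched a symbol.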
